A study of Homo sapiens with 4 samples.

Results

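KG1a is a line of human acute myeloid leukemia (AML) cells that carry the progenitor antigen CD34 and show little myeloid maturation. It was set against HL60, a myeloblastic to promyelocytic line, and against the monocytic lines THP-1 and MonoMac-1. A gene counted when its level in KG1a lay above or below all 3 of the other lines. Levels were in RPKM, an abundance per kilobase of gene length scaled to the library total, and were compared as log2(RPKM + 1). Of 21865 symbols, 12976 had 1 RPKM or more in at least 1 line, and these are the measured genes. KG1a was above the other 3 lines in 4025 of them and below in 3849, which makes 7874 members. Members thus hold most measured genes, and the description below turns on those far outside the range of the other lines and on 176 genes silent only in KG1a. These values chose the members, so they are given as a description without a test.

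The study profiled RNA of several AML lines within work on leukemia with the MLL-AF9 fusion and on the receptor RET. Each of the 4 lines, all established human cell lines, gave 1 library, and nothing in the labels describes a repeat culture. The 4 lines were grown under one protocol, in RPMI/Opti-Media with inactivated fetal bovine serum, penicillin and streptomycin. No treatment or genetic change is named for any line, but the title of the THP-1 sample ends in "tr", which the labels do not explain. Of the 4, THP-1 and MonoMac-1 are known to carry MLL-AF9, which the labels do not state. With 1 library per line, a difference between KG1a and another line cannot be told apart from a difference between those 2 cultures or libraries.

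Blood progenitors that express CD34 hold low levels of the genes of mature phagocytes. On the way to granulocytes and monocytes, the transcription factors PU.1 (SPI1) and C/EBP switch on genes for granule proteases, the oxidase that makes superoxide, lysosomal enzymes and receptors for antibodies and microbes. Progenitor regulators such as ERG and MYCN and surface proteins such as CD34 are lost along that path.

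The libraries held 10.2 gigabases on genes in KG1a, 8.72 in HL60, 13.6 in MonoMac-1 and 6.04 in THP-1. Genes at 1 RPKM or more numbered 10944 in KG1a, 10569 in HL60, 11240 in MonoMac-1 and 11346 in THP-1. KG1a had the most measured genes under 0.1 RPKM, 1090, against 781 in HL60, 693 in MonoMac-1 and 496 in THP-1. One feature of HL60 bears on the higher side, wherever HL60 is the line nearest to KG1a. Genes abundant in KG1a (50 RPKM or more) and under 0.5 RPKM in THP-1 and MonoMac-1 lay in HL60 at a median of 2.71% of their KG1a level (19 genes, quartiles 2.59% and 3.45%, range 2.40% to 113%). Of the 366 genes at least 4-fold higher in KG1a, 225 (61.5%) had an HL60 value at 2 to 4% of that in KG1a. The counts over all genes and the 3 widest gaps are therefore given both with HL60 as deposited and after this share of the KG1a value was taken off it, and other gaps as deposited. With the share taken off, the number of members above the other lines was the same in every gene list except the receptor tyrosine kinases, where it was 10 and not 9. The source of the share was not tested.

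The label of an immature line was checked on markers. The summed level of 8 progenitor markers was 658 RPKM in KG1a, 53.2 in HL60, 10.4 in MonoMac-1 and 16.9 in THP-1, and 6 of the 8 reached 1 RPKM in KG1a. KIT, the stem cell factor receptor, and PROM1 (CD133) did not. KIT stood at 0.00634 RPKM in KG1a, 0.514 in HL60, 0.111 in MonoMac-1 and 9.06 in THP-1. PROM1 stood at 0.403 RPKM in KG1a, 0.0324 in HL60, 0.0244 in MonoMac-1 and 0.0200 in THP-1 and was not measured by the rule above. KG1a thus had the CD34 part of the progenitor pattern and neither of these other 2 defining surface markers. The summed level of 5 promyelocyte markers was 23.9 RPKM in KG1a against 5596 in HL60, 6913 in MonoMac-1 and 6493 in THP-1. That of 7 monocyte markers was 7.81 RPKM in KG1a against 36.9, 5214 and 1142 in the same order. In bulk RNA fewer cells of a type and less RNA per cell cannot be told apart.

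Markers of other cell types were also checked. Of 4 T cell markers, CD3E (14.1 RPKM) and CD7 (21.5) were above 1 RPKM in KG1a, while LCK (0.121) and CD2 (0.0107) were near 0. The 4 T cell markers summed to 35.7 RPKM in KG1a and to 1.998 or less in each other line. Of the 3 markers of natural killer (NK) cells, NKG7 stood at 122 RPKM in KG1a, 18.02 in HL60, 159 in MonoMac-1 and 15.95 in THP-1, while GNLY and KLRD1 were at 0.210 RPKM or less in every line. Erythroid and megakaryocyte markers summed to 90.5 RPKM in KG1a, nearly all of it ITGA2B, and the globins HBA1 and HBG1 were at 0.111 RPKM or less there. The B cell markers summed to 0.514 RPKM in KG1a, and those of stroma and epithelium to 0.0187. The T, NK and megakaryocyte genes that were high in KG1a came without LCK, CD2, GNLY, KLRD1 and these globins.

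KG1a stood apart from the other 3 lines in more genes than any of them did. It was above all 3 in 31% of measured genes and below in 29.7%, and the corresponding counts were 2995 and 3400 for HL60, 2729 and 3033 for THP-1, and 3227 and 2515 for MonoMac-1. The shares of 31% and 29.7% are the scale for the counts in each gene list below. The excess was larger at a gap of 4-fold, the gap being the difference on log2(RPKM + 1) between a line and the nearest of the other 3. KG1a was at least 4-fold above in 366 genes (2.82%) and at least 4-fold below in 277 (2.13%). With HL60 left out, 560 genes were at least 4-fold below in KG1a. By the same rule with all lines HL60 reached 59 and 74, THP-1 147 and 28, and MonoMac-1 137 and 24. THP-1 and MonoMac-1, which are both monocytic, had few genes far below the other lines, and KG1a had many on both sides. By this rule 2 similar lines keep each other from lying outside the other 3. The counts of KG1a and of these 2 lines are therefore not like for like, and the size of that effect was not tested. After the KG1a share was taken off HL60, KG1a had 390 genes at least 4-fold above and 277 below, and HL60 59 and 113.

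**Figure D1:**
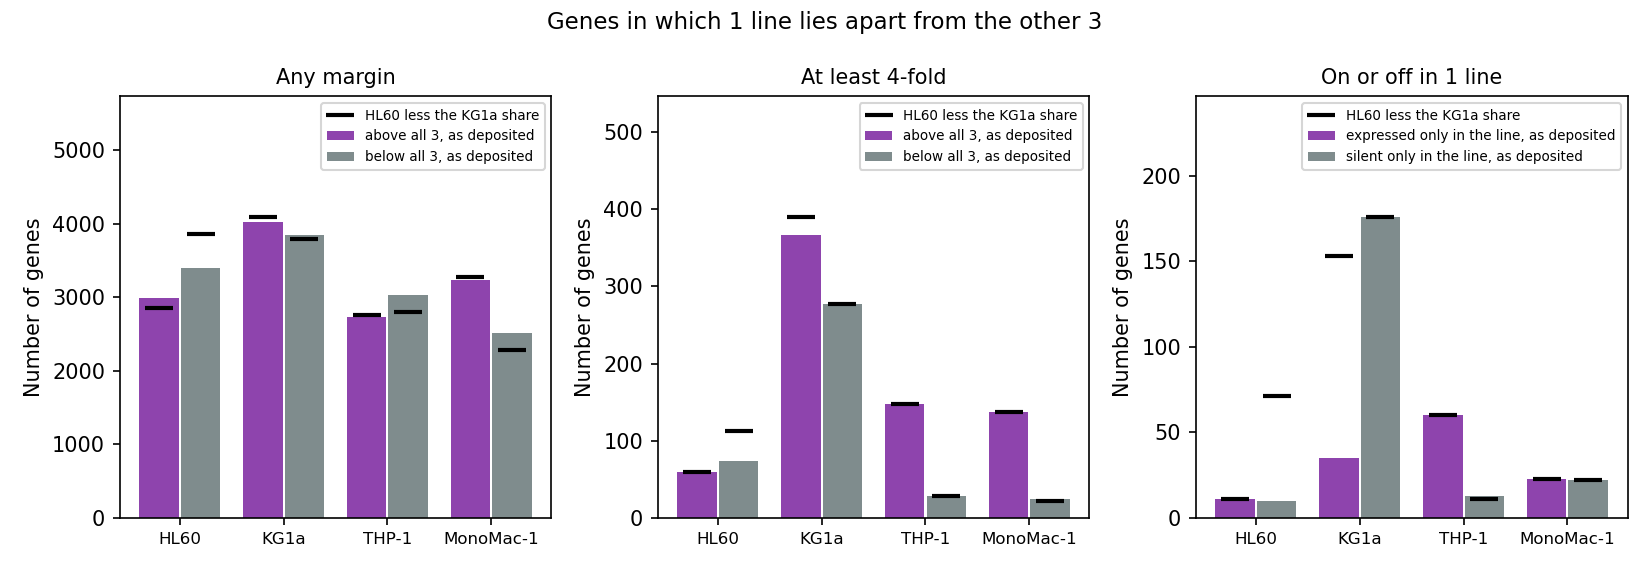
Number of measured genes (y axis) in which each line (x axis) lay outside the other 3, by any margin, by at least 4-fold, and as expressed or silent in that line only. Bars are counts from the deposited RPKM and black dashes the counts after the KG1a share was taken off HL60; KG1a has 176 genes silent only in it against 10 to 22 in the other lines, and 71 in HL60 after that step.

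At the lower edge of the 4-fold rule, SLC37A1 (gap 2.0017) was just inside and CLU (1.9993) just outside on the higher side. On the lower side GCHFR (2.0056) was just inside and ARPC2 (1.9908) just outside. The median gap was 2.71 for the 366 genes on the higher side, with a highest value of 5.15, and 2.66 for the 277 on the lower side, with a highest value of 8.96. As deposited, HL60 was the nearest line for 241 of the 366 genes, THP-1 for 72 and MonoMac-1 for 53. After removal of the share, HL60 was nearest for 111 of 366, THP-1 for 138 and MonoMac-1 for 117.

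The gene with the widest gap on the higher side was CD34, the sialomucin that marks blood progenitors and endothelium, at 494 RPKM in KG1a, 12.9 in HL60, 0.253 in MonoMac-1 and 0.0205 in THP-1. Its gap was 5.15 as deposited and 8.63 after removal of the share. Next came PCDH10, a protocadherin, at 198 RPKM in KG1a, 4.93 in HL60, a listed 0 in MonoMac-1 and 0.0887 in THP-1 (gap 5.07, and 7.52 after removal of the share). KIAA0125, a transcript also known as FAM30A, followed at 143 RPKM in KG1a, 3.67 in HL60, 0.303 in MonoMac-1 and 0.00150 in THP-1 (gap 4.94, and 6.79 after removal). ESAM is an adhesion molecule of endothelium and stem cells, STAB1 a scavenger receptor, and HOPX a small homeodomain protein of stem and progenitor cells. ESAM stood at 151 RPKM in KG1a against 4.13 in HL60, 0.208 in MonoMac-1 and 0.773 in THP-1. STAB1 stood at 125 RPKM in KG1a against 3.31 in HL60, 0.176 in MonoMac-1 and 0.0158 in THP-1. HOPX stood at 142 RPKM in KG1a against 3.92 in HL60, 0.0469 in MonoMac-1 and 0.00758 in THP-1. All 3 were under 1 RPKM in both monocytic lines, and their HL60 values were 2.64 to 2.76% of those in KG1a.

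The other 9 of the 15 widest gaps on the higher side were of several kinds. RHAG, an ammonium channel of the red cell membrane, stood at 109 RPKM in KG1a against 2.84 in HL60, a listed 0 in MonoMac-1 and a listed 0 in THP-1. RSAD2 (viperin), an antiviral protein induced by interferon, stood at 75.3 RPKM in KG1a against 1.69 in HL60, 0.520 in MonoMac-1 and 1.71 in THP-1. BAALC, a cytoplasmic protein of immature leukemias, stood at 78.7 RPKM in KG1a against 2.03 in HL60, 0.0635 in MonoMac-1 and 0.136 in THP-1. These 3 showed that genes of red cells, of the interferon response and of progenitors stood side by side at the top. JAK3, the kinase of the common gamma chain receptors, stood at 77.1 RPKM in KG1a against 2.12 in HL60, 0.417 in MonoMac-1 and 0.0533 in THP-1. CD247, the zeta chain of the T cell receptor, stood at 56.1 RPKM in KG1a against 1.46 in HL60, 0.477 in MonoMac-1 and 0.487 in THP-1. C1orf150, RAB27B, C19orf77 and GRIK5 completed the set, with KG1a levels of 68.1, 74.3, 188 and 59.1 RPKM. C19orf77 (SMIM24) was the only one of the 15 in which another line, MonoMac-1 at 6.89 RPKM, set the gap rather than HL60 or, for RSAD2, THP-1.

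**Figure D2:**
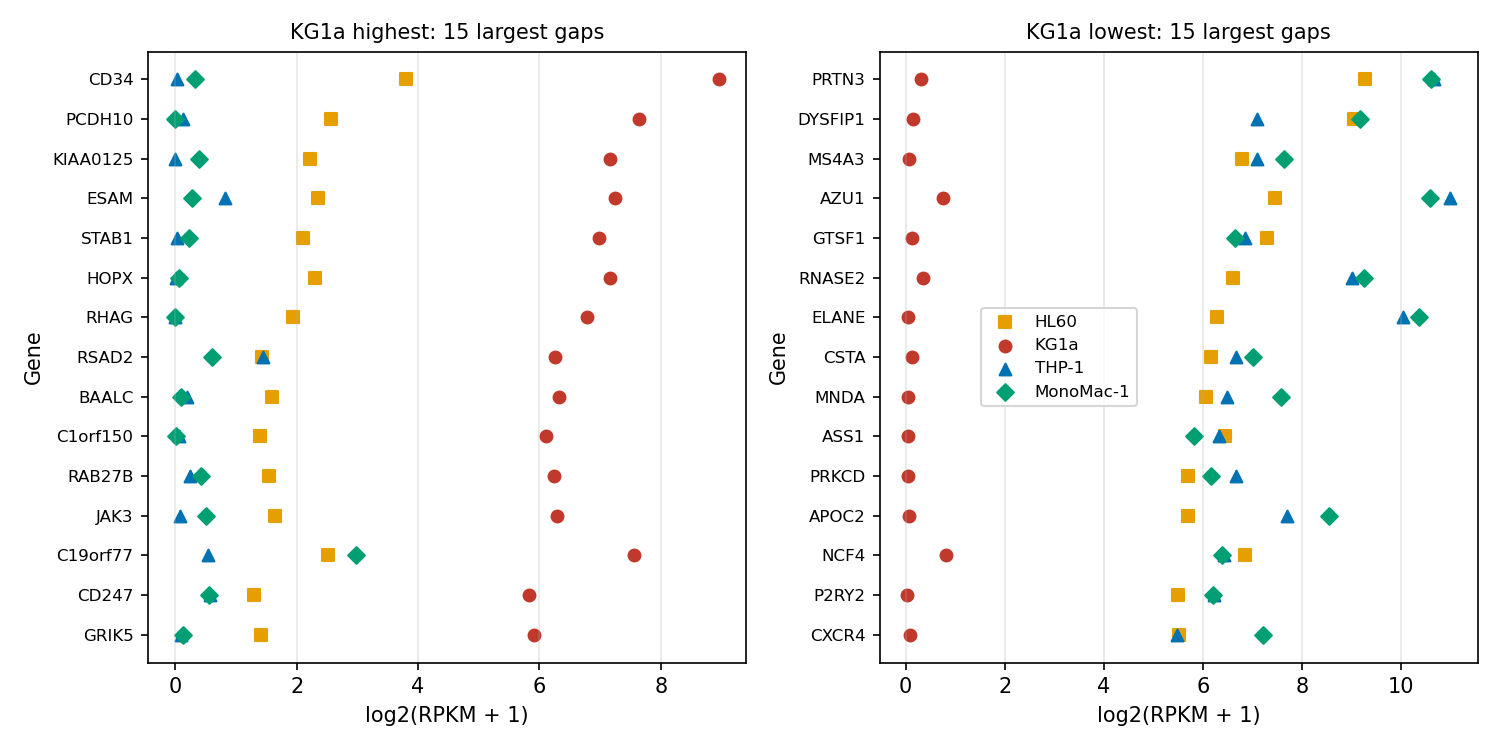
Levels in log2(RPKM + 1) (x axis) of the 15 genes (y axis) with the widest gap above the other lines (left) and below them (right), 1 point per line. On the left HL60 lies between the KG1a points and those of the monocytic lines for most genes, while on the right the KG1a points lie near 0 and the other 3 lines far above.

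Of 31 listed stem and progenitor markers, 26 were measured, and 22 of these reached 1 RPKM in KG1a. Their median was 0.681 RPKM in HL60, 0.170 in MonoMac-1 and 0.0939 in THP-1. The filter thus favors members high in KG1a, and the counts describe the measured members only. Of the 26, KG1a was above the other lines in 22, below in 2 and within their range in 2, and 17 were at least 4-fold above. The median difference of KG1a from the mean of the other lines was 2.98 on the log2 scale, and 5.13 with a pseudocount of 0.1, against -0.01 over all measured genes. ANGPT1, the ligand of the TIE2 receptor, stood at 23.1 RPKM in KG1a, 0.591 in HL60, 0.180 in MonoMac-1 and 0.00331 in THP-1. CYTL1, a secreted protein first found in CD34 cells, stood at 26.7 RPKM in KG1a, 0.872 in HL60, 0.0502 in MonoMac-1 and 0.0431 in THP-1. GUCY1A3 and GUCY1B3, the 2 subunits of soluble guanylate cyclase, stood at 11.3 and 9.03 RPKM in KG1a and at 0.325 or less in each other line. The other 4 members were not highest in KG1a. KIT was lowest in KG1a, THY1 was lowest there by 0.01 on the log2 scale, which is no separation from MonoMac-1, and CD38 and ALDH1A1 lay within the range of the other lines.

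Progenitor transcription factors were split. Of 24 measured, KG1a was above in 12 and below in 6, with 5 at least 4-fold above and 0 below (median difference 0.77). MYCN, a transcription factor of the MYC family, stood at 33.1 RPKM in KG1a, 0.892 in HL60, 0.0192 in MonoMac-1 and 0.00552 in THP-1. Its antisense transcript MYCNOS was among the genes expressed only in KG1a, and reads of such a pair cannot be told apart without knowledge of strand, which is not given in the sources used here. ERG, an ETS factor of stem cells and endothelium, stood at 22.8 RPKM in KG1a, 1.19 in HL60, 0.0560 in MonoMac-1 and 0.188 in THP-1. ID1, an inhibitor of basic helix-loop-helix factors, stood at 28.7 RPKM in KG1a, 0.910 in HL60, 2.37 in MonoMac-1 and 1.35 in THP-1. TAL1 stood at 4.91 RPKM in KG1a, 0.185 in HL60, 0.00758 in MonoMac-1 and 0.0805 in THP-1. These 3 were under 3 RPKM in every other line. TCF7L2, a WNT effector, stood at 14.6 RPKM in KG1a, 2.56 in HL60, 0.0281 in MonoMac-1 and 0.721 in THP-1. MYB, which progenitors need to divide, was lower in KG1a, at 38.2 RPKM in KG1a, 164 in HL60, 122 in MonoMac-1 and 124 in THP-1. The other members below all 3 lines were GATA1, IKZF2, ID2, ZFP36L2 and KLF2.

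HOX genes, homeobox regulators of position and of progenitor growth, were measured in 11 members of the HOXA cluster, of which KG1a was above in 6 and below in 2, with none at least 4-fold apart. HOXA9 had the highest level of the cluster in KG1a, at 93.4 RPKM in KG1a against 2.65 in HL60, 59.7 in MonoMac-1 and 28.6 in THP-1. HOXA7 stood at 30.8 RPKM in KG1a, 5.44 in HL60, 23.2 in MonoMac-1 and 1.12 in THP-1. HOXA10 stood at 25.1 RPKM in KG1a, 7.55 in HL60, 18.3 in MonoMac-1 and 19.2 in THP-1. The gaps between KG1a and the next line were small, at 0.64, 0.40 and 0.37. HOXA13, at the far end of the cluster, was in contrast 0.00652 RPKM in KG1a and 3.85 in HL60. Of the HOXB cluster only HOXB2 and HOXB4 were measured, and HOXB2 stood at 38.3 RPKM in KG1a, 1.02 in HL60, 0.00774 in MonoMac-1 and a listed 0 in THP-1, 2.66% of the KG1a level in HL60.

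Some T and NK lineage genes were also far above the other lines. Of 40 listed, 19 were measured, and the rest were under 1 RPKM in every line. Of the 19, 16 reached 1 RPKM in KG1a, and their median was 0.888 RPKM in HL60, 0.159 in MonoMac-1 and 0.128 in THP-1. The filter thus favors members high in KG1a, and the counts describe those members only. KG1a was above in 12 of the 19, at least 4-fold above in 9, and below in 2 (median difference 2.86, and 4.54 with a pseudocount of 0.1). KLRK1, the activating receptor NKG2D, stood at 37.1 RPKM in KG1a, 0.888 in HL60, 0.151 in MonoMac-1 and a listed 0 in THP-1. IL32, a cytokine of activated T and NK cells, stood at 102 RPKM in KG1a, 4.701 in HL60, 0.101 in MonoMac-1 and 0.251 in THP-1. PRF1 (perforin, the pore protein of killer cells) stood at 26.9 RPKM in KG1a, 0.841 in HL60, 0.0648 in MonoMac-1 and 0.0227 in THP-1. The CD3 chains CD3D and CD3E, with CD247, made up 3 of the 9. CD3D stood at 10.6 RPKM in KG1a, 1.88 in HL60, 0.269 in MonoMac-1 and 0.128 in THP-1. ZAP70, the kinase that binds CD247, stood at 4.27 RPKM in KG1a, 0.260 in HL60, 0.0503 in MonoMac-1 and 0.0226 in THP-1. GATA3, a T cell factor, stood at 5.01 RPKM in KG1a, 0.169 in HL60, 0.00512 in MonoMac-1 and a listed 0 in THP-1. The early T cell factors TCF7 and LEF1 were in contrast at 0.0300 and 0.0149 RPKM in KG1a, and TCF7 and the adaptor LAT were the 2 members lowest there. CTSW, a cathepsin of cytotoxic lymphocytes that sits on the list of cathepsins, stood at 271 RPKM in KG1a, 7.78 in HL60, 24.8 in MonoMac-1 and 2.51 in THP-1. The part of other cells in these levels was not tested; LCK and CD2 were near 0 in the same library.

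Endothelial-type and platelet genes overlapped with the progenitor genes. Of 24 listed endothelial-type genes 13 were measured, 11 of them with 1 RPKM or more in KG1a. KG1a was above in 10 of the 13 and below in 2, with 5 at least 4-fold above: EMCN, ESAM, FLT1, TAL1 and TIE1. TIE1, an endothelial receptor tyrosine kinase, stood at 14.7 RPKM in KG1a, 0.399 in HL60, 0.160 in MonoMac-1 and 0.0516 in THP-1. FLT1, a receptor of vascular endothelial growth factor, stood at 7.88 RPKM in KG1a, 0.305 in HL60, 0.0241 in MonoMac-1 and 0.0120 in THP-1. PECAM1 (CD31), shared by endothelium, platelets and monocytes, went the other way, at 0.00688 RPKM in KG1a, 3.26 in HL60, 34.2 in MonoMac-1 and 17.7 in THP-1, and was silent only in KG1a. Of 17 measured erythroid and megakaryocyte genes, KG1a was above in 6 (35.3%) and below in 9 (52.9%), against 31% and 29.7% of all measured genes. ITGA2B and ITGB3, which pair to form the fibrinogen receptor of platelets, were the 2 at least 4-fold above. ITGA2B stood at 90.3 RPKM in KG1a, 7.26 in HL60, 0.330 in MonoMac-1 and 0.323 in THP-1. ITGB3 stood at 13.5 RPKM in KG1a, 0.354 in HL60, 0.0387 in MonoMac-1 and 0.0189 in THP-1. GFI1B, a repressor needed for red cells and platelets, stood at 124 RPKM in KG1a, 4.603 in HL60, 0.00710 in MonoMac-1 and 0.00803 in THP-1, while GATA1 was lowest in KG1a at 0.0360 RPKM.

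Of 25 measured adhesion molecules KG1a was above in 8 (32%) and below in 5 (20%), close to the 31% above over all measured genes, and 6 were at least 4-fold above and 1 below. CD44, the hyaluronan receptor, stood at 255 RPKM in KG1a, 55.3 in HL60, 15.3 in MonoMac-1 and 20.2 in THP-1. ICAM1 stood at 12.1 RPKM in KG1a, 1.69 in HL60, 2.14 in MonoMac-1 and 0.560 in THP-1. ITGA3 stood at 9.39 RPKM in KG1a, 0.318 in HL60, 0.375 in MonoMac-1 and 0.541 in THP-1. KG1a was the highest line for each of these 3 adhesion genes. The one at least 4-fold below was ITGAX (CD11c), an integrin of myeloid cells, at 0.348 RPKM in KG1a, 5.69 in HL60, 7.200 in MonoMac-1 and 9.72 in THP-1. Of 12 measured drug efflux transporters, KG1a was above in 5 (41.7%) and below in 3 (25%), against 31% and 29.7% of all measured genes. ABCB1 (P-glycoprotein) stood at 20.02 RPKM in KG1a, 0.419 in HL60, a listed 0 in MonoMac-1 and 0.0464 in THP-1. ABCG1, a cholesterol exporter, stood at 18.02 RPKM in KG1a, 0.584 in HL60, 0.00891 in MonoMac-1 and 0.464 in THP-1. The list as a whole did not move with these 2, its median difference being -0.07 with all lines, 0.26 without HL60 and -0.37 without THP-1.

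**Figure D3:**
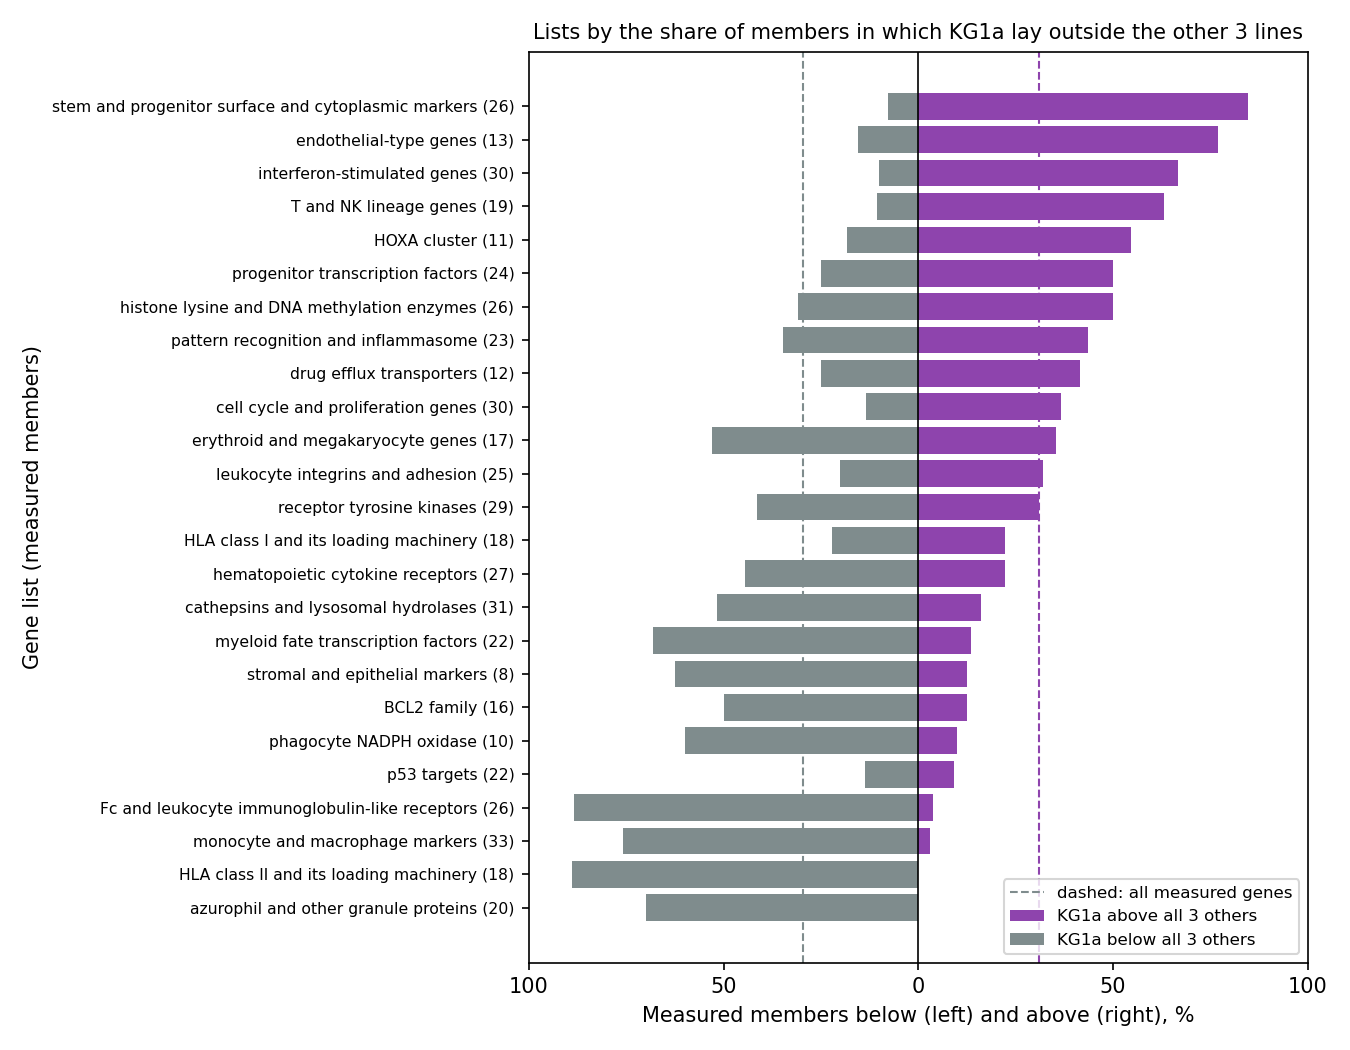
Share of the measured members of each gene list (y axis, with the number of measured members) in which KG1a lay above the other 3 lines (right, %) or below them (left, %), for the 25 lists with at least 8 measured members. Dashed lines mark the same shares over all measured genes, 31% and 29.7%. Stem and progenitor markers reach furthest right, and HLA class II and the Fc and leukocyte immunoglobulin-like receptors furthest left. Members passed a filter of 1 RPKM in at least 1 line, which favors members high in KG1a on the right and high elsewhere on the left.

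Genes induced by interferon were higher in KG1a in 20 of 30 measured, and lower in 3, with 5 at least 4-fold above and 1 below (median difference 1.36). The 5 were RSAD2, IFI44, IFIT3, IFIT5 and OAS3. IFI44 stood at 29.5 RPKM in KG1a, 0.756 in HL60, 1.43 in MonoMac-1 and 0.638 in THP-1. IFIT3 stood at 12.9 RPKM in KG1a, 1.59 in HL60, 0.398 in MonoMac-1 and 1.38 in THP-1. OAS3, a sensor of double-stranded RNA, stood at 25.1 RPKM in KG1a, 0.764 in HL60, 0.511 in MonoMac-1 and 4.14 in THP-1. For these 3 genes no other line passed 5 RPKM. Some of the best-known members were not highest in KG1a: ISG15 stood at 14.4 RPKM in KG1a, 10.2 in HL60, 16.5 in MonoMac-1 and 11.8 in THP-1. MX1 stood at 1.38 RPKM in KG1a, 0.239 in HL60, 2.75 in MonoMac-1 and 2.03 in THP-1. Both lay within the range of the other lines. SAMHD1, an enzyme that degrades free deoxynucleotides, was the one at least 4-fold below, at 0.671 RPKM in KG1a, 8.41 in HL60, 61.7 in MonoMac-1 and 107 in THP-1.

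Enzymes and readers of histone and DNA methylation were above the other lines in 13 of 26 (50%) and below in 8 (30.8%). Over all measured genes these shares were 31% and 29.7%. Only DNMT3B and CBX2 were at least 4-fold above. DNMT3B, which places new methyl groups on DNA, stood at 56.4 RPKM in KG1a, 4.74 in HL60, 3.46 in MonoMac-1 and 2.23 in THP-1. DNMT1, which copies methylation at replication, stood at 149.7 RPKM in KG1a, 87.3 in HL60, 76.3 in MonoMac-1 and 82.8 in THP-1, a smaller gap of 0.77. DNMT3A, the other de novo enzyme, lay within the range, at 3.03 RPKM in KG1a, 2.49 in HL60, 6.34 in MonoMac-1 and 5.31 in THP-1. The 3 DNA methyltransferases thus differed in how far KG1a stood from the other lines. CBX2, a Polycomb reader, stood at 45.9 RPKM in KG1a, 7.16 in HL60, 0.242 in MonoMac-1 and 4.13 in THP-1. BMI1, another Polycomb protein, stood at 81.98 RPKM in KG1a, 11.2 in HL60, 46.1 in MonoMac-1 and 39.7 in THP-1. EZH2, the Polycomb methyltransferase, was instead lowest in KG1a, at 13.3 RPKM in KG1a, 48.2 in HL60, 16.9 in MonoMac-1 and 36.7 in THP-1.

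On the lower side, the granule proteins of neutrophils and their precursors stood out. Of 20 measured, KG1a was above the other lines in 0 and below in 14, with 10 at least 4-fold below and a median difference of -4.60. The widest gap of any gene was that of PRTN3 (proteinase 3), at 0.237 RPKM in KG1a, 615 in HL60, 1558 in MonoMac-1 and 1624 in THP-1 (gap 8.96). AZU1 (azurocidin) stood at 0.678 RPKM in KG1a, 175 in HL60, 1536 in MonoMac-1 and 2033 in THP-1. ELANE (neutrophil elastase) stood at 0.0355 RPKM in KG1a, 76.6 in HL60, 1313 in MonoMac-1 and 1042 in THP-1. The KG1a value of ELANE rested on 400 bases of sequence, the equivalent of 2 read pairs. Another member, RNASE2, a granule ribonuclease, stood at 0.267 RPKM in KG1a, 96.9 in HL60, 607 in MonoMac-1 and 510.5 in THP-1. CSTA, an inhibitor of cathepsins, stood at 0.0866 RPKM in KG1a, 70.7 in HL60, 127 in MonoMac-1 and 101 in THP-1. Not every granule gene separated KG1a from all 3 lines. MPO (myeloperoxidase) stood at 3.097 RPKM in KG1a, 4610.2 in HL60, 95.2 in MonoMac-1 and 4.78 in THP-1, so that KG1a and THP-1 were both low. SERPINB1, the elastase inhibitor, was not low in KG1a, at 76.98 RPKM in KG1a, 37.9 in HL60, 173 in MonoMac-1 and 31.00 in THP-1.

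Myeloid transcription factors were lower in KG1a in 15 of 22 measured and higher in 3. SPI1 (PU.1), which myeloid cells need, stood at 1.41 RPKM in KG1a, 117 in HL60, 168 in MonoMac-1 and 98.9 in THP-1, a gap of 5.38. CEBPA, the factor of granulocyte and monocyte commitment, stood at 13.7 RPKM in KG1a, 105 in HL60, 159 in MonoMac-1 and 185 in THP-1 and was therefore low but above 1 RPKM in KG1a. CEBPE, the factor of late granule genes, stood at 0.0409 RPKM in KG1a, 178 in HL60, 16.1 in MonoMac-1 and 4.99 in THP-1 and was silent only in KG1a. The level of CEBPE also differed widely among the other 3 lines. CEBPD stood at 0.127 RPKM in KG1a, 3.69 in HL60, 45.5 in MonoMac-1 and 35.2 in THP-1. GFI1 stood at 9.44 RPKM in KG1a, 82.8 in HL60, 41.01 in MonoMac-1 and 93.4 in THP-1. These 5 were the members at least 4-fold below. RXRA, a nuclear receptor partner, was highest in KG1a, at 39.3 RPKM in KG1a, 25.1 in HL60, 19.6 in MonoMac-1 and 35.5 in THP-1.

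Of 33 measured monocyte and macrophage markers, 7 reached 1 RPKM in KG1a, so most passed the filter only through the other lines. KG1a was below in 25 of the 33 and above in 1, with 9 at least 4-fold below (median difference -2.10). That median was -2.90 without HL60, -1.44 without MonoMac-1 and -3.29 with a pseudocount of 0.1. TYROBP (DAP12), an adaptor of activating myeloid receptors, stood at 0.619 RPKM in KG1a, 29.2 in HL60, 203 in MonoMac-1 and 73.5 in THP-1. TNFRSF1B, a receptor of tumor necrosis factor, stood at 0.0401 RPKM in KG1a, 20.02 in HL60, 24.8 in MonoMac-1 and 22.9 in THP-1. CD4 stood at 0.0450 RPKM in KG1a, 79.8 in HL60, 8.66 in MonoMac-1 and 61.1 in THP-1. CD4, a coreceptor shared by monocytes and helper T cells, was thus expressed in every line but KG1a. CD33 stood at 4.73 RPKM in KG1a, 59.5 in HL60, 38.8 in MonoMac-1 and 38.3 in THP-1. LYZ (lysozyme) stood at 1.13 RPKM in KG1a, 11.99 in HL60, 4837 in MonoMac-1 and 510.3 in THP-1. The member highest in KG1a was AIF1, at 160.2 RPKM in KG1a, 141 in HL60, 34.8 in MonoMac-1 and 75.2 in THP-1. FCER1G, the Fc receptor gamma chain, was at 44.1 RPKM in KG1a and within the range of the other lines. CD14 was low in all 4 lines and lowest in KG1a by 0.00421 on the log2 scale, which is no separation.

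Of 41 listed receptors for antibodies and related inhibitory and activating receptors, 26 were measured, and the rest were under 1 RPKM in every line. Of the 26, 4 reached 1 RPKM in KG1a, so the filter favors members high in the other lines. The counts describe those members only. KG1a was below in 23 of the 26 and above in 1 (median difference -1.85, and -4.39 with a pseudocount of 0.1). Of the 26, 8 were silent only in KG1a. LAIR1, a collagen receptor, stood at 0.517 RPKM in KG1a, 34.6 in HL60, 143 in MonoMac-1 and 78.5 in THP-1. SIRPA, the receptor of the CD47 signal, stood at 0.00366 RPKM in KG1a, 20.3 in HL60, 15.02 in MonoMac-1 and 15.6 in THP-1. FCGR1A, the high-affinity receptor of IgG, stood at 0.00395 RPKM in KG1a, 8.14 in HL60, 24.96 in MonoMac-1 and 18.9 in THP-1. KG1a held under 1 RPKM of each of these 3 receptors. CD300LF stood at 0.0416 RPKM in KG1a, 12.5 in HL60, 11.1 in MonoMac-1 and 13.9 in THP-1. LILRA2 stood at 0.0233 RPKM in KG1a, 7.41 in HL60, 10.99 in MonoMac-1 and 16.3 in THP-1. The copies FCGR1A, FCGR1B and FCGR1C, and SIGLEC5 with SIGLEC14, are near-identical, so the split of reads among them is uncertain. LILRB1 was the single member highest in KG1a, at 1.44 RPKM in KG1a, 0.0991 in HL60, 0.263 in MonoMac-1 and 0.873 in THP-1.

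The phagocyte oxidase was low in KG1a in cytosolic subunits. Of 10 measured genes, 6 were lowest in KG1a and 1, VAV1, was highest. NCF4 (p40phox) stood at 0.747 RPKM in KG1a, 114 in HL60, 81.9 in MonoMac-1 and 84.4 in THP-1. NCF1 (p47phox), whose reads may be shared with its near-copy NCF1C, stood at 0.0508 RPKM in KG1a, 4.58 in HL60, 4.24 in MonoMac-1 and 3.53 in THP-1. Both of these cytosolic subunits were thus under 1 RPKM in KG1a. CYBB, the catalytic subunit, stood at 0.960 RPKM in KG1a, 5.96 in HL60, 41.8 in MonoMac-1 and 4.28 in THP-1. CYBA, its membrane partner, was not reduced against HL60, at 66.1 RPKM in KG1a, 64.1 in HL60, 374 in MonoMac-1 and 456 in THP-1. RAC2, the GTPase of the complex, stood at 201 RPKM in KG1a, 267 in HL60, 292 in MonoMac-1 and 252 in THP-1.

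Antigen presentation differed between the 2 HLA classes. Of 18 measured genes of class II and its loading, 6 reached 1 RPKM in KG1a, so most passed the filter only through the other lines. KG1a was below in 16 of the 18 and above in 0, although only CD74, CTSS and IFI30 were at least 4-fold below. CD74, the invariant chain, stood at 1.67 RPKM in KG1a, 88.8 in HL60, 608 in MonoMac-1 and 79.8 in THP-1. HLA-DRA stood at 0.494 RPKM in KG1a, 1.28 in HL60, 429.9 in MonoMac-1 and 4.39 in THP-1, so that HL60 and THP-1 were also low. The class II transactivator CIITA was low in 3 lines, at 0.146 RPKM in KG1a, 0.0566 in HL60, 5.85 in MonoMac-1 and 0.250 in THP-1. For class I, KG1a was above in 4 of 18 (22.2%) and below in 4 (22.2%), with none at least 4-fold apart. The class I median difference was -0.08 with all lines, -0.45 without HL60, 0.04 without THP-1 and 0.19 without MonoMac-1. HLA-B stood at 336 RPKM in KG1a, 369 in HL60, 1301 in MonoMac-1 and 279 in THP-1. B2M, the class I light chain, stood at 1504 RPKM in KG1a, 1347 in HL60, 1950.0 in MonoMac-1 and 1032 in THP-1.

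Lysosomal enzymes were below in 16 of 31 measured and above in 5, but only CTSZ, CTSL1 and CTSS were at least 4-fold below. CTSZ (cathepsin Z) stood at 0.0815 RPKM in KG1a, 22.00 in HL60, 277 in MonoMac-1 and 129 in THP-1. CTSL1 (cathepsin L) stood at 0.0259 RPKM in KG1a, 12.1 in HL60, 21.2 in MonoMac-1 and 34.7 in THP-1. Cathepsin D (CTSD) and prosaposin (PSAP) lay within the range of the other lines, at 153 and 151 RPKM in KG1a. Pattern recognition was mixed, with 10 of 23 (43.5%) above and 8 (34.8%) below, against 31% and 29.7% of all measured genes. TLR4, the endotoxin receptor, stood at 0.00852 RPKM in KG1a, 6.13 in HL60, 7.42 in MonoMac-1 and 5.77 in THP-1. TLR2 stood at a listed 0 in KG1a, 2.93 RPKM in HL60, 37.2 in MonoMac-1 and 33.7 in THP-1. PYCARD, the inflammasome adaptor, stood at 1.55 RPKM in KG1a, 69.4 in HL60, 122 in MonoMac-1 and 128 in THP-1. KG1a held under 2 RPKM of each of these 3. CASP4, a caspase that senses endotoxin in the cytosol, went the other way, at 189.5 RPKM in KG1a, 28.2 in HL60, 33.01 in MonoMac-1 and 29.1 in THP-1. CASP1 was also highest in KG1a, at 60.4 RPKM in KG1a, 14.6 in HL60, 34.1 in MonoMac-1 and 24.7 in THP-1.

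Among 27 measured cytokine receptors KG1a was above in 6 (22.2%) and below in 12 (44.4%), against 31% and 29.7% of all measured genes. IL17RA stood at 0.833 RPKM in KG1a, 12.3 in HL60, 43.7 in MonoMac-1 and 26.00 in THP-1. CSF2RB, the shared chain of the GM-CSF, IL-3 and IL-5 receptors, stood at 0.710 RPKM in KG1a, 16.4 in HL60, 5.38 in MonoMac-1 and 9.34 in THP-1. IL27RA was at least 4-fold above, at 50.2 RPKM in KG1a, 7.299 in HL60, 9.44 in MonoMac-1 and 3.91 in THP-1. Lymphocytes and stem cells are among the cells that use it. Among 29 measured receptor tyrosine kinases KG1a was above in 9 (31.0%), the share over all measured genes, and below in 12 (41.4%). RET, the receptor named in the title of the study, was silent only in KG1a: it stood at 0.0175 RPKM in KG1a, 2.74 in HL60, 14.6 in MonoMac-1 and 47.8 in THP-1. FLT3 was also lowest in KG1a, at 0.0597 RPKM in KG1a, 1.695 in HL60, 225 in MonoMac-1 and 33.4 in THP-1. MERTK and EPHA1 were highest there, at 4.49 and 5.42 RPKM.

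Of 16 measured BCL2 family genes KG1a was below in 8 and above in 2. BIK, which promotes cell death, was the one at least 4-fold below, at 0.199 RPKM in KG1a, 7.47 in HL60, 20.3 in MonoMac-1 and 23.7 in THP-1. The 2 above were BCL2L1 (BCL-XL), which protects cells, at 33.9 RPKM in KG1a, 8.88 in HL60, 9.03 in MonoMac-1 and 10.4 in THP-1, and BAD, a partner that blocks it, at 40.2 RPKM in KG1a. BCL2 itself lay within the range, at 11.1 RPKM in KG1a, 6.699 in HL60, 28.6 in MonoMac-1 and 30.8 in THP-1. Over all 12976 measured genes, KG1a was neither above nor below the other lines in 5102, which is the scale for counts within the range. Of 30 cell cycle genes KG1a was above in 11, below in 4 and within the range in 15. Of the 30, 0 were at least 4-fold apart, where 2.82% and 2.13% of all measured genes were. Among them MKI67 stood at 94.8 RPKM in KG1a, 57.8 in HL60, 16.9 in MonoMac-1 and 37.1 in THP-1. MCM7 stood at 69.5 RPKM in KG1a, 232 in HL60, 142 in MonoMac-1 and 149.9 in THP-1. Of 22 measured p53 targets 17 lay within the range of the other lines, and ZMAT3, at 15.9 RPKM in KG1a, 3.06 in HL60, 1.796 in MonoMac-1 and 0.913 in THP-1, was the only one at least 4-fold apart. Of 20 B lineage genes 6 were measured, and BANK1, an adaptor of the B cell receptor, was the only one at least 4-fold apart, at 74.4 RPKM in KG1a, 8.48 in HL60, 0.767 in MonoMac-1 and 6.91 in THP-1. Of 8 measured stromal and epithelial markers KG1a was below in 5, and SPARC was at least 4-fold above, at 23.3 RPKM in KG1a, 0.615 in HL60, 4.32 in MonoMac-1 and 0.0812 in THP-1.

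Genes silent only in KG1a were those under 0.1 RPKM there and at 2 RPKM or more in each other line. There were 176 (1.36%), against 10 in HL60, 22 in MonoMac-1 and 13 in THP-1 by the same rule for those lines. After the KG1a share was taken off HL60, HL60 had 71. With HL60 left out of the comparison, KG1a had 363. The rule sits on a slope of values: GTSF1 at 0.09925 RPKM in KG1a was just inside and CHD7 at 0.10007 just outside. In the other lines UGGT2 with a lowest value of 2.03 RPKM was just inside and RHOBTB3 with 1.98 just outside. Of the 176, 27 were listed at 0 in KG1a, and the median KG1a level was 0.0204 RPKM. The level worth 3 read pairs of 200 bases in this library had a median of 0.0173 RPKM over these genes, and it was under 0.1 RPKM for 172 of them. For 87 genes the KG1a value was at or below that floor, which covers counting error only. In the other lines their median levels were 6.70 RPKM in HL60, 11.1 in MonoMac-1 and 10.1 in THP-1. All 3 of the other lines reached 5 RPKM in 84 of the genes, 10 RPKM in 41 and 20 RPKM in 22.

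The silent genes with the highest levels elsewhere came from several classes. MS4A3, a membrane protein of granulocyte precursors, stood at 0.0443 RPKM in KG1a, 109.5 in HL60, 197 in MonoMac-1 and 134 in THP-1. GTSF1, a germ cell factor of small RNA pathways, stood at 0.0993 RPKM in KG1a, 156 in HL60, 99.4 in MonoMac-1 and 114 in THP-1. MNDA, a nuclear protein of myeloid cells, stood at 0.0393 RPKM in KG1a, 65.8 in HL60, 189 in MonoMac-1 and 88.2 in THP-1. These 3 and ELANE and CSTA were at 65.8 RPKM or more in every other line. Signalling proteins were also among them. PRKCD, a protein kinase C, stood at 0.0288 RPKM in KG1a, 50.6 in HL60, 70.5 in MonoMac-1 and 99.9 in THP-1. P2RY2, a receptor of extracellular nucleotides, stood at 0.0201 RPKM in KG1a, 44.2 in HL60, 72.8 in MonoMac-1 and 73.1 in THP-1. CXCR4, the chemokine receptor that holds blood progenitors in the marrow, stood at 0.0613 RPKM in KG1a, 44.7 in HL60, 147 in MonoMac-1 and 43.3 in THP-1. For these 3 the other lines lay between 43.3 and 147 RPKM. CARD9, an adaptor of antifungal receptors, stood at 0.0984 RPKM in KG1a, 33.4 in HL60, 44.5 in MonoMac-1 and 55.98 in THP-1. Another part of this set has no special tie to myeloid cells: AP1S1, a subunit of a clathrin adaptor, stood at 0.0189 RPKM in KG1a, 27.7 in HL60, 32.9 in MonoMac-1 and 25.1 in THP-1. USP15, a deubiquitinase, stood at 0.0107 RPKM in KG1a, 12.7 in HL60, 16.9 in MonoMac-1 and 16.6 in THP-1. Both genes are expressed in many tissues. PRAME, a tumor antigen, stood at 0.0250 RPKM in KG1a, 44.8 in HL60, 112 in MonoMac-1 and 24.2 in THP-1. BASP1, a membrane protein of growing neurites, stood at 0.0501 RPKM in KG1a, 76.4 in HL60, 92.6 in MonoMac-1 and 41.5 in THP-1. Only 21 of the 176 were on any of the gene lists.

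The sequence in front of silent genes was examined as a feature that the rule does not use, and 4 promoters are shown because they mark the ends of what was found. They are the 2 with the most and the 2 with the fewest CG dinucleotides among 20 silent genes at 10 RPKM or more in each other line that have 1 listed start. Each is the 250 bases before the start in RefSeq (GRCh38.p14, a later build than that of the expression tables), 5′ to 3′ on the gene's strand, with every CG in capitals.
LPPR3, minus strand, chr19:821956-822205: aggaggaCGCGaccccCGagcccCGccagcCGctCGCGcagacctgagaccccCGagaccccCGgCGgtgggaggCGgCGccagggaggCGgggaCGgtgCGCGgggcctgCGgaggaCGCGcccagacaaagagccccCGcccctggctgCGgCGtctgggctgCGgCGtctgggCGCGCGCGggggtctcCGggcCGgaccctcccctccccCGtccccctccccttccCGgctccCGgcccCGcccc
CTSZ, minus strand, chr20:59007255-59007504: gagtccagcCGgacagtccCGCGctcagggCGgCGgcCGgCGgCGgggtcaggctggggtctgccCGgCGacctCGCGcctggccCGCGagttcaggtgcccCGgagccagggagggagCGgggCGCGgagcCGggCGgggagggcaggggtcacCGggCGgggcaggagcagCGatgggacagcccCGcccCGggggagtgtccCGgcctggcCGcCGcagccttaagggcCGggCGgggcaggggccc
NXF3, minus strand, chrX:103093144-103093393: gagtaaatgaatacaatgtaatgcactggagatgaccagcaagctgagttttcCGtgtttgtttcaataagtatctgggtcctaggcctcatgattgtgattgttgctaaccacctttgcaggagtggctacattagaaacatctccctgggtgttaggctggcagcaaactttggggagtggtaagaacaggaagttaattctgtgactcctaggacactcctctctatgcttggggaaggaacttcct
MNDA, plus strand, chr1:158831101-158831350: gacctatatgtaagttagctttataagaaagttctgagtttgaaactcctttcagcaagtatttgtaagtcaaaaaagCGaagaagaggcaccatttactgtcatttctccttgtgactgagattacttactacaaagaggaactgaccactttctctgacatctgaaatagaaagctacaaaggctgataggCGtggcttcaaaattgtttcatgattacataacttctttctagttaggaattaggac
The first 2 hold 34 and 30 CG and the last 2 hold 1 and 2. LPPR3 (PLPPR3), a membrane protein related to lipid phosphatases, stood at 0.0384 RPKM in KG1a, 28.9 in HL60, 132 in MonoMac-1 and 100.1 in THP-1. NXF3, a relative of the RNA export factor NXF1, stood at 0.0192 RPKM in KG1a, 32.96 in HL60, 17.1 in MonoMac-1 and 23.2 in THP-1.

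RefSeq promoters matched 69.9% of the silent genes, below the 80% that was asked for, so a comparison over that table is void. The CG count in the first 200 bases of GENCODE 29 transcripts, chosen in its place, had a value for 96.6% of the silent genes. Its median was 15 in the silent genes (170 with a value), 16 in all measured genes and 17 in genes at 2 RPKM or more in each of the 3 other lines. The share with 5 or fewer CG was 24.7% in the silent genes, 13.1% in all measured genes and 8.72% in genes expressed in the 3 other lines. Genes at least 4-fold above in KG1a had a median of 10, and 34.1% of them had 5 or fewer. CG-poor starts were thus more frequent on both sides than over all measured genes, and silent genes still had CG-rich starts (15 or more) in 50.6%.

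**Figure D4:**
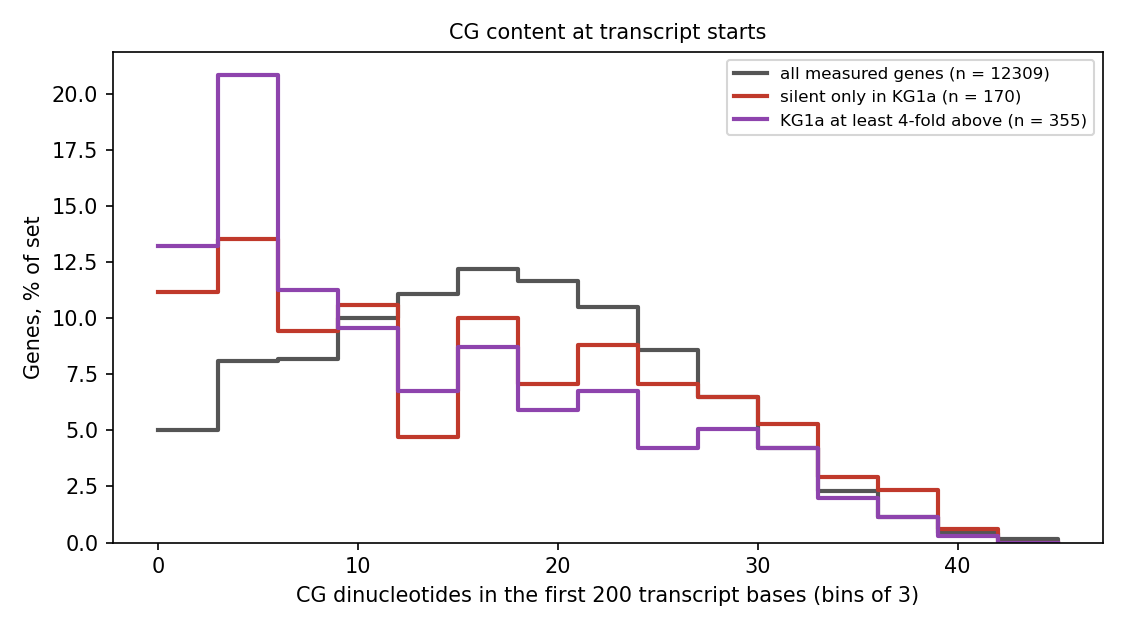
Share of genes (y axis, %) by the number of CG dinucleotides in the first 200 bases of the transcript (x axis, bins of 3), for all measured genes, genes silent only in KG1a and genes at least 4-fold above in KG1a. The line of the silent genes lies above that of all measured genes at 5 or fewer CG (24.7% against 13.1% of genes) and covers the whole range of CG counts.

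Silent genes were placed among their neighbours by the coordinates of the tables (hg19). Of the 2 listed entries on each side of each silent gene, 439 distinct genes were measured. KG1a was below the other lines in 186 of these (42.4%) and above in 91, against 29.7% and 31% of all measured genes. Some of these neighbours were themselves silent: without them 419 remained, 166 of which (39.6%) were below and 15 (3.58%) at least 4-fold below, against 2.13% of all measured genes. Of 63 nearest measured genes that lay within 10 kb and were not silent, 34 (54.0%) were below. Most neighbours were expressed in KG1a, with 312 of the 419 at 1 RPKM or more. That was a smaller share than the 10944 of 12976 over all measured genes. Of the 176 silent genes, 20 had another silent gene within 2 entries, and 31 had a gene at least 4-fold below. Among the 439 measured neighbours 20 were silent, where 1.36% of all measured genes were. At least 4-fold below were 7.52% of the 439, against 2.13% of all measured genes. Neighbouring genes often belong to one family and can share reads where they overlap, and the part of either in these shares was not tested.

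The clearest run lay on chromosome 19, where LPPR3, AZU1, PRTN3, ELANE and CFD follow each other between 812518 and 863610. All 5 were at least 4-fold below, and the last 4 encode serine proteases stored in granules or, for azurocidin, a relative without protease activity. CFD (complement factor D) stood at 1.55 RPKM in KG1a, 17.96 in HL60, 238 in MonoMac-1 and 227 in THP-1. The run had sharp ends. PTBP1, a splicing factor that ends 191 bases from LPPR3, stood at 196 RPKM in KG1a, 155 in HL60, 156 in MonoMac-1 and 160.4 in THP-1. MED16, a Mediator subunit on the other side of CFD, stood at 44.8 RPKM in KG1a, 22.96 in HL60, 25.2 in MonoMac-1 and 18.5 in THP-1. Both were highest in KG1a. On chromosome 14, RNASE3, ECRP and RNASE2, related ribonuclease genes, formed a second run. RNASE3 stood at 0.0229 RPKM in KG1a, 3.89 in HL60, 104 in MonoMac-1 and 10.6 in THP-1. ECRP stood at a listed 0 in KG1a, 3.43 RPKM in HL60, 28.7 in MonoMac-1 and 34.3 in THP-1. Beyond RNASE2, METT11D1 stood at 27.9 RPKM in KG1a. Reads of these related genes may be shared.

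Some adjacent silent pairs were of unrelated function. LCMT2, a methyltransferase-like protein that modifies transfer RNA, and ADAL, an adenosine deaminase-like enzyme, lie 52 bases apart on chromosome 15. LCMT2 stood at 0.00575 RPKM in KG1a, 3.67 in HL60, 9.704 in MonoMac-1 and 9.59 in THP-1. ADAL stood at 0.000450 RPKM in KG1a, 2.55 in HL60, 3.84 in MonoMac-1 and 3.88 in THP-1. Their neighbour ZSCAN29, 4274 bases beyond ADAL, was at 6.59 RPKM in KG1a, within the range of the other lines. On chromosome 2, HNRPLL, an RNA-binding regulator of splicing in lymphocytes, and GALM, which acts on galactose, were both silent. HNRPLL stood at 0.0216 RPKM in KG1a, 16.6 in HL60, 12.8 in MonoMac-1 and 14.04 in THP-1. GALM stood at 0.00122 RPKM in KG1a, 6.11 in HL60, 5.67 in MonoMac-1 and 5.56 in THP-1. On either side of this pair, ATL2 and the splicing factor SRSF7, the latter 8832 bases beyond GALM, were expressed in KG1a, at 16.6 and 62.98 RPKM. Other adjacent pairs were GAL with MTL5, TNFSF9 with CD70, SIRPB2 with SIRPB1, SFMBT1 with PRKCD, ZNF503 with C10orf11, NCS1 with ASS1 and KIAA1958 with SNX30.

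**Figure D5:**
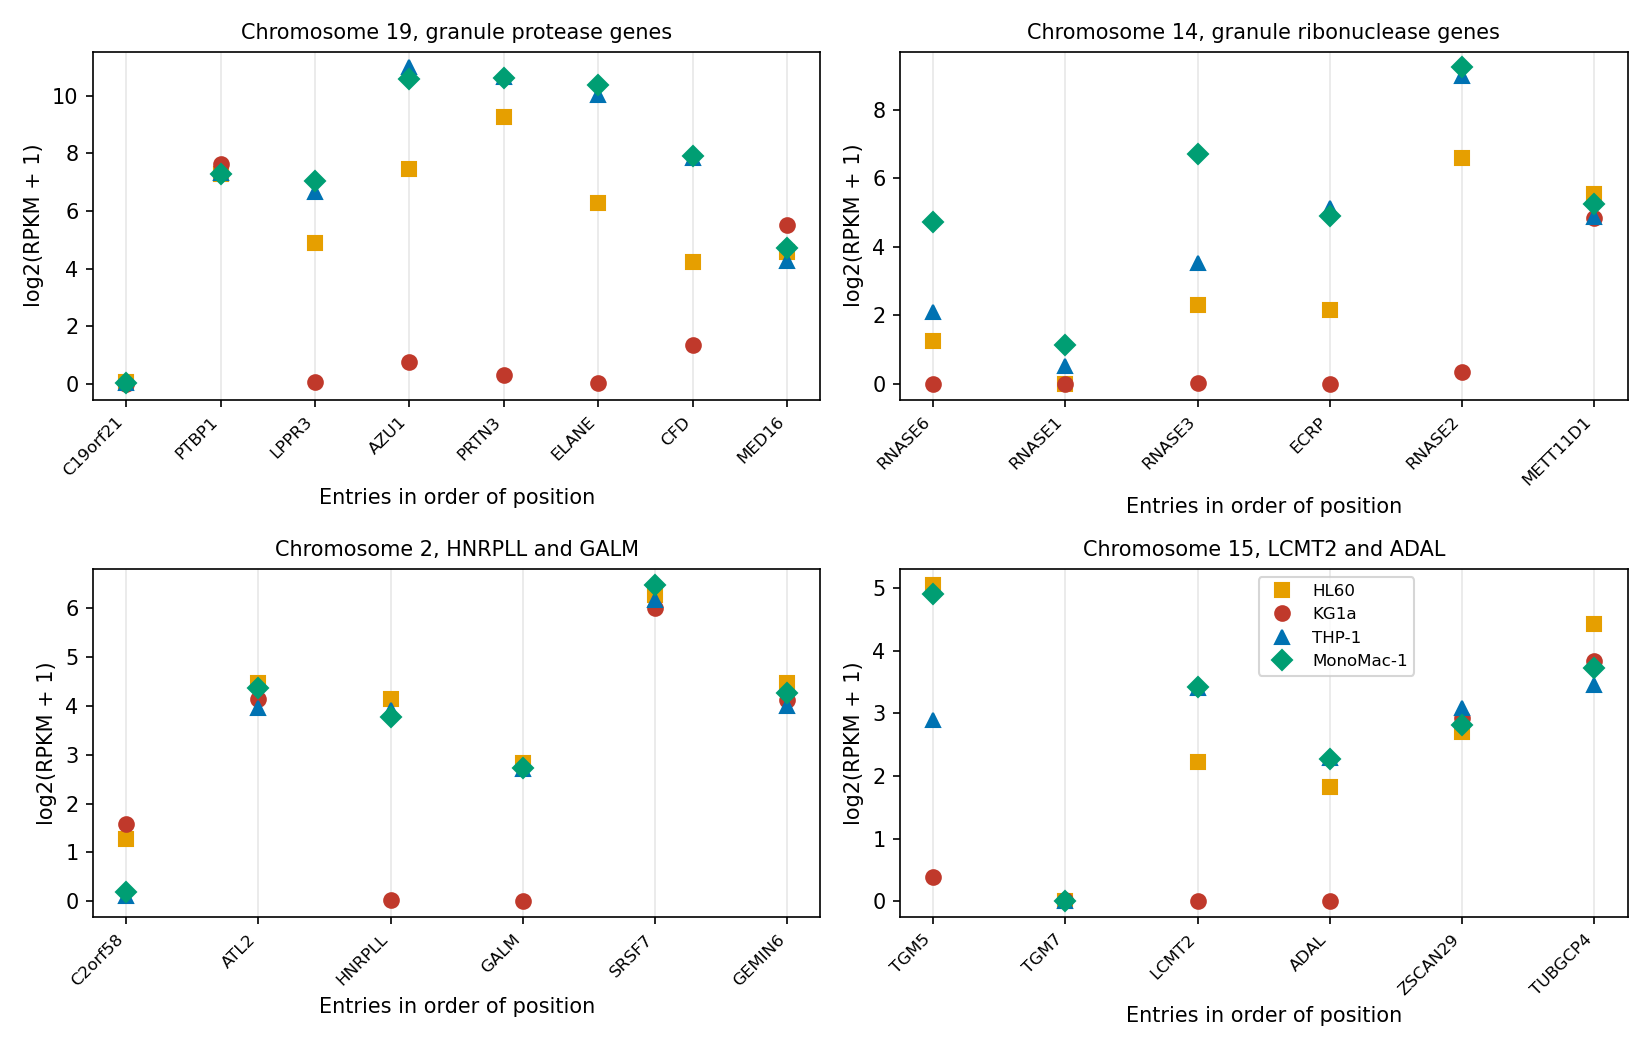
Levels in log2(RPKM + 1) (y axis) of neighbouring entries in order of position (x axis, not to scale) around 4 groups of silent genes, 1 point per line. KG1a points drop to near 0 at the silent genes and lie close to the other lines, at 6.59 RPKM or more, at PTBP1, MED16, METT11D1, ATL2, SRSF7 and ZSCAN29.

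Silent genes also had neighbours that were at least 4-fold below without meeting the silent rule. NXF3 lies next to BEX1, a small adaptor of neurons and leukemias, which stood at 0.124 RPKM in KG1a, 511 in HL60, 88.7 in MonoMac-1 and 38.5 in THP-1. SEMA4A lies next to LMNA, which encodes lamins A and C and stood at 0.859 RPKM in KG1a, 63.6 in HL60, 53.3 in MonoMac-1 and 88.5 in THP-1. AHNAK, a very large scaffold protein near ASRGL1, stood at 0.162 RPKM in KG1a, 21.6 in HL60, 65.9 in MonoMac-1 and 66.4 in THP-1. Of the 419 measured neighbours that were not silent, 7 (1.67%) were instead at least 4-fold above, against 2.82% of all measured genes. IFI16, a DNA sensor of the same family as MNDA, 160412 bases from it on chromosome 1, stood at 133 RPKM in KG1a, 10.02 in HL60, 8.43 in MonoMac-1 and 6.76 in THP-1, opposite to MNDA. DAPK1, a death-associated kinase next to CTSL1, stood at 47.5 RPKM in KG1a, 1.35 in HL60, 3.96 in MonoMac-1 and 4.63 in THP-1. PRR5L, a partner of the kinase complex mTORC2 that lies near LDLRAD3, stood at 36.6 RPKM in KG1a, 1.08 in HL60, 0.686 in MonoMac-1 and 0.585 in THP-1. The others were ATP13A2, GNG7, FLRT2 and OVCH2. CD300LF overlaps RAB37, which was expressed in KG1a at 20.9 RPKM, so the silence of CD300LF was not shared by the gene around it.

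The mirror of the silent rule, 2 RPKM or more in KG1a and under 0.1 in each other line, held for 35 genes (0.27%) as deposited. These reached no higher than 5.19 RPKM. For scale, the median share of a KG1a level of 3.69 RPKM is 0.1 RPKM in HL60. The highest were MYCNOS at 5.19 RPKM, ASB9 at 5.05, GCNT4, an enzyme of O-glycans, at 4.99, and the zinc finger gene ZNF681 at 4.73. CD200, an inhibitory surface ligand, stood at 3.46 RPKM in KG1a, 0.0343 in HL60, 0.0240 in MonoMac-1 and a listed 0 in THP-1. After the share was taken off HL60, 153 genes met the rule, led by PCDH10, HOPX, RHAG, C1orf150 and GRIK5. Among them was SLC8A3, a sodium-calcium exchanger, at 51.2 RPKM in KG1a, 1.39 in HL60, 0.0123 in MonoMac-1 and a listed 0 in THP-1 as deposited. CLEC9A, a receptor of dendritic cells for dead cells, stood at 41.8 RPKM in KG1a, 0.958 in HL60, 0.00673 in MonoMac-1 and 0.0516 in THP-1. HOXB2, MYCN, CD7 and ABCB1 also met it after that step. The count of genes expressed only in KG1a thus depends on how the HL60 value is read, and it was 192 with HL60 left out.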

How the data were processed

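RNA of 4 AML cell lines was sequenced, 1 library per line, so no test was run and no p-value is given. The authors deposited 1 table per line with 21893 entries, each with a symbol, position, RPKM and a second value. The RPKM that the authors deposited is a level per kilobase scaled to the library total. The second value is a coverage signal, deposited with no header, and was read from its whole-number values as a sum of sequenced bases. Per the submitters' processing notes, CASAVA 1.8.2 and the build hg19 were used; for the aligner, annotation and strand handling the entry is: not given in the sources used here. For 28 repeated entries the one with the highest mean was used. Values were compared as log2(RPKM + 1), over genes at 1 RPKM or more in at least 1 line, with Python 3.11.15, pandas 2.3.3 and numpy 2.4.6; the counting script was tested on simulated data. A pseudocount of 1 understates gaps of weakly expressed genes. Named were the 15 widest gaps in each direction, up to 5 genes in each of 27 lists, defining markers, silent genes and their far-apart neighbours; list members named beyond these were chosen after their values were seen. A few genes that the rule names are not reported here. Members and lists were chosen with earlier results of these data known. A read floor of 3 pairs of 200 bases was used. Alternatives were pseudocount, filter, scaling, thresholds, repeated entries, removal of the KG1a share from HL60 and each line left out. The count of CG in GENCODE 29 transcripts was chosen after the data were seen.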

Additional observations from a re-analysis of the deposited data

How the results depend on the processing

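No paired analysis was possible because each line has 1 library. The count of genes above the other lines was 6057 without a filter on low values. With a pseudocount of 0.1, 625 genes were at least 4-fold above and 629 below. Without 1 of the other lines in turn, the 4-fold counts were 433 to 486 above and 316 to 560 below. The silent genes were 202 to 363 and the genes expressed only in KG1a 43 to 192. Fewer lines are easier to pass, so every such run can only raise these counts. The highest of each came without HL60 (486, 560, 363 and 192), and why that run was highest was not tested. At 5 RPKM as the level of expression, 84 genes were silent only in KG1a and 2 expressed only there. The latter count was also 2 with a filter of 5 RPKM, 16 under quantile normalization, 153 after removal of the KG1a share, 10 and 221 with silence set at 0.05 and 0.5 RPKM, and 88 with expression at 1 RPKM. Quantile normalization raised the HL60 median by 0.12 on the log2 scale. Median differences changed sign for HLA class I (-0.4453 to 0.1881 with a line left out, 0.0406 without THP-1), drug efflux transporters (-0.3747 to 0.2583, the highest without HL60) and all genes (0.0040 with a pseudocount of 0.1, -0.0198 to 0.0175 with a line left out); for these small medians the cause was not tested. Median differences of 13 lists moved by more than 1.5-fold with a pseudocount of 0.1 without a change of sign, among them endothelial-type genes (4.11) and granule proteins (-5.33). HLA class II had a median difference of -2.16, which was -3.69 with that pseudocount, -3.08 without HL60 and -0.82 without MonoMac-1. Granule proteins had -3.81 without HL60, and B lineage genes -0.9996 without THP-1. Of 340 named genes, 0 changed the sign of their gap under any alternative run. A pseudocount of 0.1 or a line left out cannot change that sign, and removal of the KG1a share cannot reverse a gap above. Only the changes of scaling, and that removal for gaps below, could have reversed a gap. The gap moved by more than 1.5-fold for 259 with a pseudocount of 0.1, 114 without HL60, 27 without THP-1, 22 without MonoMac-1 and 19 after removal of the KG1a share. The spread between cultures of a line is unknown, and values under the read floor cannot be told from 0.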

Other observations

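Silent genes of metabolism were not described above. ASS1 and CBS are enzymes of amino acid metabolism, the first needed to make arginine and the second to pass homocysteine on to cystathionine. ASS1 stood at 0.0388 RPKM in KG1a, 85.6 in HL60, 55.1 in MonoMac-1 and 78.6 in THP-1. CBS stood at 0.0521 RPKM in KG1a, 28.02 in HL60, 15.99 in MonoMac-1 and 22.5 in THP-1. Both were thus expressed at 15.99 RPKM or more in each line but KG1a. FBP1, an enzyme of glucose synthesis, stood at a listed 0 in KG1a, 3.19 RPKM in HL60, 10.3 in MonoMac-1 and 10.3 in THP-1, and CBR1, a carbonyl reductase, at 0.00658 RPKM in KG1a against 22.2 in HL60, 82.6 in MonoMac-1 and 15.02 in THP-1. Genes of lipid transport were also in the set. APOC2, an activator of lipoprotein lipase, stood at 0.0529 RPKM in KG1a, 50.8 in HL60, 371 in MonoMac-1 and 205 in THP-1. Its neighbour in the same family, APOC1, stood at 0.0711 RPKM in KG1a, 3.59 in HL60, 89.7 in MonoMac-1 and 39.3 in THP-1, and the lipase itself, LPL, at a listed 0 in KG1a, 13.5 RPKM in HL60, 48.5 in MonoMac-1 and 22.1 in THP-1. Regulators of transcription among the silent genes included IRX3, a homeobox gene, at 0.0426 RPKM in KG1a, 14.9 in HL60, 79.2 in MonoMac-1 and 49.5 in THP-1. TGIF1, a repressor of TGF-beta signals, stood at 0.00136 RPKM in KG1a, 21.2 in HL60, 10.8 in MonoMac-1 and 6.36 in THP-1.

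The silent genes lay on every autosome and on X, and on no measured gene of Y. Their share of measured genes ran from 0.585% on chromosome 6 to 3.31% on chromosome 21. Chromosome 9 held the most, 17 genes or 3.17%, among them ASS1, CARD9, CTSL1 and TLR4.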
